A study of Homo sapiens with 4 samples.

Results

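The genes described here are 10 chaperones of newly made histones H3 and H4, chosen by name: CHAF1A, CHAF1B, RBBP4, ASF1A, ASF1B, NASP and HAT1 for assembly coupled to DNA replication, and HIRA, DAXX and ATRX for the histone variant H3.3. They are 10 of the 23004 gene names in the deposited files, and all 10 were found and had a mean level high enough to be tested. The cells were BEAS-2B, an immortalized line from human bronchial epithelium. The 2 groups were untreated cells and cells given 100 µM of an agent for 48 h, and the labels mark the second group only as treated, while formaldehyde is named in the series title. Each group had 2 libraries of total RNA, numbered 1 and 2, from this single line, and no label says whether the libraries of a group came from separate cultures, so the tests weigh a difference only against the scatter of these libraries, which may be technical.

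Histones are carried from their synthesis to DNA by a relay of chaperones. NASP holds the soluble H3 and H4 pool, HAT1 acetylates new H4 with RBBP4 or its relative RBBP7, ASF1A and ASF1B pass the H3-H4 dimer on, and the CAF-1 complex (CHAF1A, CHAF1B and RBBP4) places it on freshly replicated DNA. H3.3 is placed outside replication, by HIRA mainly in transcribed regions and by DAXX with ATRX mainly in telomeric and pericentric chromatin. CAF-1, ASF1B and NASP are known to be high in dividing cells, and the series title names chromatin assembly. The comparison of the groups here reads only RNA levels of the chaperone genes. Neither their proteins nor assembly itself was measured in these data.

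Levels are FPKM (fragments of a transcript divided by its length in kilobases and by the mapped fragments of the library, in M) as the authors deposited them, added up for each gene name. The libraries held 14.2 to 26.4 M mapped fragments, recovered from the deposited intervals, and the number 2 libraries were the deeper ones in both groups. Between 12049 and 12379 genes had at least 1 FPKM. Keratins KRT7, KRT8 and KRT18 were at 140 to 531 FPKM in the 4 libraries, whereas the epithelial markers KRT19 and CDH1 were at 0.05 to 0.63 FPKM and EPCAM at 0.98 to 3.18 FPKM. The summed level of the 6 epithelial markers was 641 to 709 FPKM in untreated and 1156 to 1339 FPKM in formaldehyde libraries, carried by KRT7, KRT8 and KRT18, while KRT19 and CDH1 were lower in both formaldehyde libraries. The sum of 5 fibroblast markers, most of it COL1A1, was 301 to 600 and 145 to 277 FPKM, and no marker high enough to be tested passed the test described below. Still, KRT7, KRT8 and KRT18 were higher in both formaldehyde libraries than in both untreated ones (3 of 4 epithelial markers tested, against 16.2% of all genes tested). COL1A1 was lower in the same sense (1 of 2 fibroblast markers tested, against 10.7%). Of 5 leukocyte markers CD14 was at 1.77 to 11.98 FPKM and the others at no more than 0.062 FPKM, and the 4 endothelial markers summed to at most 0.19 FPKM. In bulk RNA, fewer cells of a kind and less RNA per cell cannot be told apart, and the part of these marker levels in the values below was not tested.

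None of the 10 chaperone genes passed the test between the groups: with limma on log2(FPKM + 1), the Benjamini-Hochberg adjusted p over 12407 genes was 0.9999 for each. In the same fit 19 genes passed (0.153% of those tested, with 10 or 0.0806% higher and 9 or 0.0725% lower). Of the 12407 genes 343 had an unadjusted p under 0.05, with 0 of the 10 members among them. At so small a share this says little about the members. It is also fewer genes than this threshold would give on average with no change anywhere. Failing the test therefore does not show that a gene was unchanged. The members differed among themselves far more in level than between groups. Their mean over the 4 libraries ran from 108 FPKM for NASP through 88.5 for ASF1B, 60.0 for CHAF1A, 53.6 for HAT1, 43.5 for CHAF1B, 27.6 for DAXX, 16.1 for RBBP4, 15.2 for HIRA and 9.04 for ATRX down to 6.73 for ASF1A. Only 2 neighbouring pairs in this order had ranges that did not overlap, DAXX above RBBP4 and HIRA above ATRX. NASP was above ASF1B, ASF1B above CHAF1A and CHAF1B above DAXX within each of the 4 libraries, although their ranges overlapped. The orders of CHAF1A and HAT1 and of HAT1 and CHAF1B each held in 2 of 4 libraries. Those of RBBP4 and HIRA and of ATRX and ASF1A each held in 3 of 4.

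**Figure D1:**
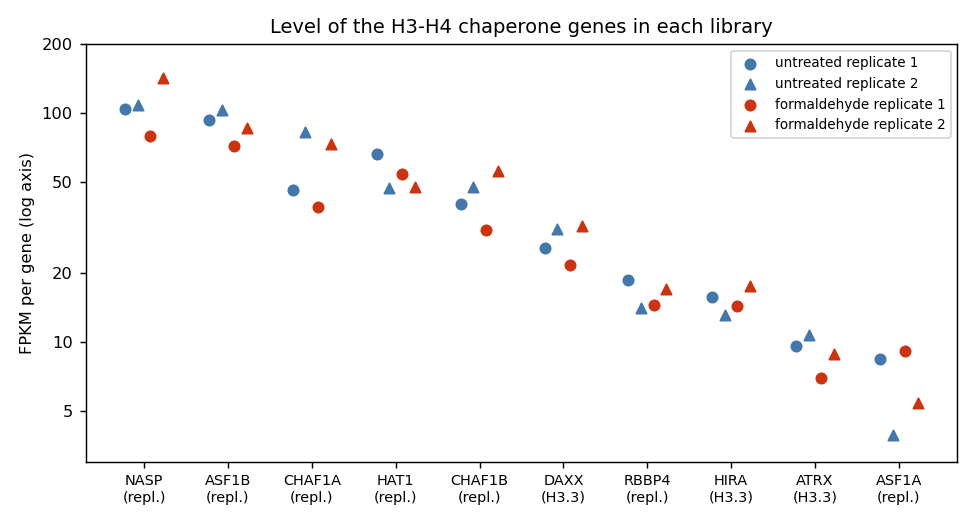
Level of each of the 10 genes in FPKM on a log axis, with untreated libraries in blue, formaldehyde libraries in red, circles for replicate number 1 and triangles for number 2; repl. marks genes of replication-coupled assembly. The genes span from 108 FPKM on average for NASP to 6.73 for ASF1A, and the 2 numbers of a group often lie farther apart than the 2 groups.

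HAT1 and NASP handle H3 and H4 before they reach DNA, and the shares of their transcripts differed between replicate numbers rather than between groups, far more in HAT1 than in NASP. Each gene is listed with transcripts that differ by a single internal exon. The sequences are shown because the estimated levels of these transcripts differed between libraries. Reads on the exons themselves were not examined. HAT1 (chr2:172778935-172848600, plus strand, hg19) has the coding transcript NM_003642 of 11 exons and 1670 nt, and NR_027862 of 10 exons and 1594 nt, which is without exon 3 (chr2:172803228-172803303, hg19). That exon has 76 nt, all of them coding in GENCODE 29 and not a multiple of 3, and GENCODE classes the transcript without it under nonsense-mediated decay, the removal of messages with an early stop. The spliced sequence around it, from the GENCODE 29 transcripts on GRCh38 (exon at chr2:171946708-171946783), reads as follows on the coding strand, with the exon in capitals and 20 nt of the neighbouring exons in lower case.
HAT1 with exon: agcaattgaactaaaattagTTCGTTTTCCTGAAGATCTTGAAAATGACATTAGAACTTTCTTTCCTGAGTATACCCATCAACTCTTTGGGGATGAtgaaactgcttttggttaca
HAT1 without exon: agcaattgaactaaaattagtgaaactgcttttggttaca

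NASP (chr1:46049660-46084578, plus strand, hg19) has NM_002482 of 15 exons and 3291 nt, and NM_152298 of 14 exons and 2274 nt. The second is without exon 6 (chr1:46072993-46074009, hg19), which has 1017 nt, a multiple of 3 and all coding; the longer form is known from testis as tNASP and the shorter one as the somatic sNASP. Another listed transcript, NM_001195193, was at about 0. The ends of the exon and the direct junction, from the same source (exon at chr1:45607321-45608337, GRCh38) and in the same letter case, are given with 30 nt of each exon end.
NASP exon start: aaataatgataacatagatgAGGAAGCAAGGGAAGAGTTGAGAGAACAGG
NASP exon end: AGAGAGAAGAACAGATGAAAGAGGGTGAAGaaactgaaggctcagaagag
NASP without exon: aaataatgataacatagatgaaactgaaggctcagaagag

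As a whole gene, HAT1 was at 66.0 and 47.1 FPKM in the untreated libraries 1 and 2, and at 53.9 and 47.4 FPKM in the formaldehyde libraries 1 and 2. The groups overlapped, with the highest value in untreated replicate 1 and nearly equal values in the number 2 libraries. Formaldehyde minus untreated was −0.14 on the log2(FPKM + 1) scale (SE 0.25, 95% interval −0.78 to 0.50, limma adjusted p = 0.9999), and within the numbers the level differed by −18.3% and 0.645%. Behind these totals, a different transcript was the higher one in each number. NM_003642, with exon 3, was at 60.6 FPKM in untreated replicate 1 and 53.9 in formaldehyde replicate 1, but at 12.3 and 6.47 FPKM in the number 2 libraries. NR_027862, without it, was at 5.43 and 0.0095 FPKM in the number 1 libraries and at 34.8 and 41.0 FPKM in the number 2 libraries, again untreated first. The transcript without the exon thus took 8.23% and 0.0177% of HAT1 in the number 1 libraries and 73.8% and 86.4% in the number 2 libraries, so the numbers were fully apart and the groups were not.

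NASP was at 104 and 108 FPKM without formaldehyde and 79.0 and 143 FPKM with it, in replicates 1 and 2. The formaldehyde libraries were the lowest and the highest of the 4, with both untreated libraries between them. The difference was 0.0039 (SE 0.33, 95% interval −0.86 to 0.87, limma adjusted p = 0.9999), made up of −24.0% within number 1 and 32.2% within number 2. NM_002482, with exon 6, was at 37.2 and 59.3 FPKM in untreated and 22.2 and 68.8 FPKM in formaldehyde libraries. NM_152298, without it, was at 66.7 and 48.7 FPKM in untreated and 56.8 and 74.0 FPKM in formaldehyde libraries. The longer form took 35.8% and 28.1% of NASP in the number 1 libraries and 54.9% and 48.2% in the number 2 libraries, so in NASP, too, the number 2 libraries of both groups stood on 1 side of the number 1 libraries.

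How common such a difference was can be read from all 2490 genes with at least 2 transcripts and 10 FPKM in every library. In 260 of them (10.4%) a transcript's share differed by at least 20 percentage points between numbers 2 and 1 in the same direction in both groups, HAT1 among them. The smaller of HAT1's shifts, 65.6 points, was the largest of the 2490, while that of NASP was 19.1 points, a size reached by 11.04% of the genes. For DAXX and RBBP4 it was 3.23 and 0.111 points. Between formaldehyde and untreated a shift of 20 points in the same direction in both numbers occurred in 30 genes (1.20%). Of the chaperone genes only RBBP4, NASP, HAT1 and DAXX were among the 2490 genes, and none of these shifted so. At that share none of so few would be expected to. HAT1 and NASP were singled out after their values were seen, these are estimates by the authors' software from reads that mostly fall on shared exons, and what differs between the numbered libraries besides depth was not tested.

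**Figure D2:**
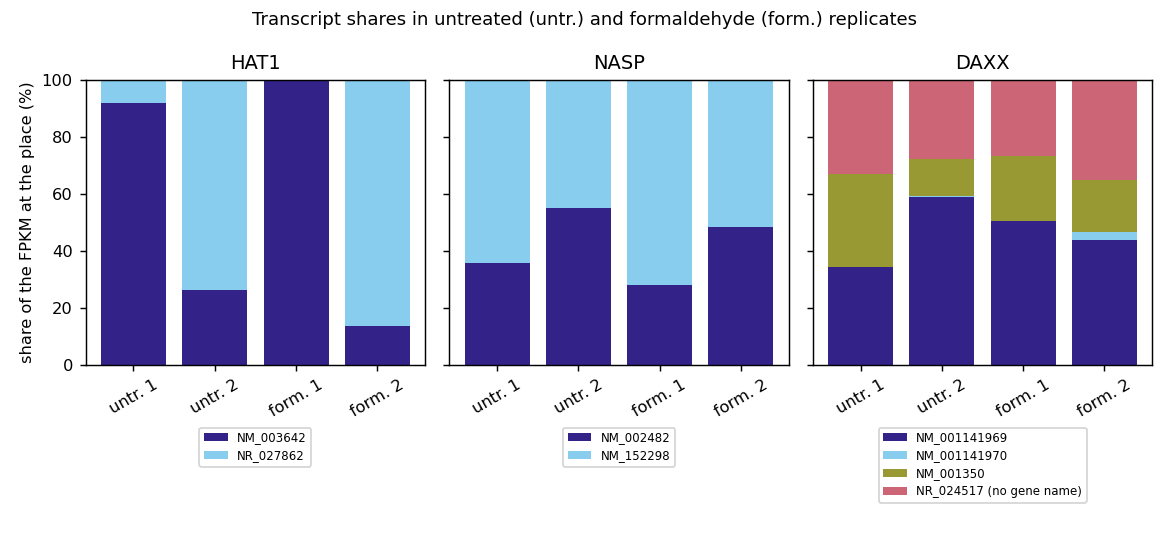
Share of each transcript in the FPKM of HAT1, NASP and the DAXX place, in percent, for untreated (untr.) and formaldehyde (form.) replicates 1 and 2; DAXX includes a transcript listed without a gene name, and the NASP transcript at about 0 is not visible. The HAT1 transcript without exon 3 takes 8.23% and 0.0177% in the number 1 libraries against 73.8% and 86.4% in the number 2 libraries. For DAXX, NM_001350 takes 32.7% and 23.1% against 13.1% and 18.2%, a smaller difference between the numbers. NM_001141969 takes 34.3% and 50.3% against 58.9% and 43.7%, with overlap. In untreated replicate 2 the authors' intervals of both begin at 0, so their split there is uncertain.

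The ASF1 paralogs take H3-H4 from the NASP stage to the depositing complexes. ASF1B (chr19:14230321-14247440, minus strand, 4 exons, 1731 nt), the paralog tied to proliferation, was at 93.5 and 103 FPKM without formaldehyde and 71.6 and 86.2 FPKM with it, in replicates 1 and 2. Both formaldehyde libraries were below both untreated libraries. The authors' counting intervals, 89.7 to 97.3 and 99.5 to 106 FPKM against 68.0 to 75.3 and 83.0 to 89.4 FPKM, did not overlap between the groups, though untreated replicate 1 and formaldehyde replicate 2 came close; they cover counting error only. ASF1B was lower by 23.4% within number 1 and by 16.1% within number 2. The log2 difference was −0.32 (SE 0.22, 95% interval −0.87 to 0.24, limma adjusted p = 0.9999), and the interval spans both signs. The formaldehyde mean was 0.804 times the untreated mean.

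ASF1A (chr6:119215241-119230335, plus strand, 4 exons, 2508 nt), the paralog that works with both CAF-1 and HIRA, had the lowest mean of the members. In formaldehyde replicate 1 it was above ATRX. It was at 8.45 and 3.92 FPKM without formaldehyde and 9.12 and 5.43 FPKM with it, in replicates 1 and 2. The groups overlapped, and both number 1 libraries were above both number 2 libraries. A looser trait, number 1 above number 2 within each group, held for 37.6% of all genes tested. It was the only member higher with formaldehyde within both numbers, by 7.96% and 38.6%, against 31.2% of all genes tested. The counts behind it were 239 to 327 fragments per library, and the authors' intervals of untreated and formaldehyde overlapped in number 1 (7.51 to 9.38 and 8.07 to 10.2 FPKM) but not in number 2 (3.41 to 4.43 and 4.78 to 6.08 FPKM). Formaldehyde exceeded untreated by 0.24 on the log2 scale (SE 0.41, 95% interval −0.82 to 1.31, limma adjusted p = 0.9999). ASF1B exceeded ASF1A in every library, 11.1-fold and 26.2-fold in untreated and 7.85-fold and 15.9-fold in formaldehyde replicates 1 and 2. The fold was lower with formaldehyde within each number, yet formaldehyde replicate 2 lay above untreated replicate 1.

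CAF-1 consists of CHAF1A, its large subunit that binds the replication clamp PCNA, CHAF1B, which joins it to ASF1, and the histone-binding protein RBBP4. CHAF1A (chr19:4402660-4443394, plus strand, 15 exons, 3343 nt) was at 46.3 and 82.2 FPKM without formaldehyde and 38.7 and 73.0 FPKM with it, in replicates 1 and 2. Both number 2 libraries were above both number 1 libraries, 1.78-fold in untreated and 1.89-fold in formaldehyde, a gap far wider than the counting intervals (44.4 to 48.1 against 80.2 to 84.2 FPKM in untreated). Of all genes tested, 29.3% were higher in number 2 within each group, a looser trait than this full separation of the numbers. Against that spread the formaldehyde level was lower within each number, by 16.4% and 11.2%. On the log2 scale the groups differed by −0.21 (SE 0.43, 95% interval −1.32 to 0.90, limma adjusted p = 0.9999), the widest interval of the 10 genes.

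CHAF1B (chr21:37757689-37789125, plus strand, 14 exons, 2279 nt) was at 40.2 and 47.5 FPKM without formaldehyde and 30.9 and 55.6 FPKM with it, in replicates 1 and 2. The formaldehyde libraries enclosed the untreated ones, as for NASP. It differed by −23.1% within number 1 and 17.2% within number 2, with a log2 difference of −0.07 (SE 0.33, 95% interval −0.93 to 0.78, limma adjusted p = 0.9999). CHAF1A exceeded CHAF1B 1.15-fold and 1.73-fold in untreated and 1.25-fold and 1.31-fold in formaldehyde libraries, so the ratio of the large subunits had overlapping ranges in the groups.

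RBBP4 (chr1:33116749-33151812, plus strand, 3 transcripts, of which NM_005610 held 94.5% to 96.3% of the level) was at 18.6 and 14.1 FPKM without formaldehyde and 14.6 and 17.0 FPKM with it, in replicates 1 and 2. Both formaldehyde values lay between the untreated ones. The log2 difference was −0.04 (SE 0.23, 95% interval −0.63 to 0.55, limma adjusted p = 0.9999), with −21.7% and 20.3% within the numbers. Its exons overlap those of SYNC on the opposite strand over 2080 to 2160 nt; SYNC was at 4.10 to 6.08 FPKM, and without a given strand setting reads of the pair cannot be told apart. RBBP7, the relative that partners HAT1, was about 10 times as high, at 186, 148, 151 and 174 FPKM in the same order of libraries, and the RBBP7 to RBBP4 ratio stayed between 10.01 and 10.5 in the 4 libraries.

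For H3.3, HIRA is the core of its own complex and DAXX binds H3.3 for the remodeller ATRX. HIRA (chr22:19318224-19419219, minus strand, 25 exons, 4013 nt) was at 15.7 and 13.1 FPKM without formaldehyde and 14.4 and 17.5 FPKM with it, in replicates 1 and 2. The groups overlapped, and the formaldehyde library was the lower of its number in 1 and the higher in 2, by −8.54% and 33.6%. HIRA's log2 difference was 0.14 (SE 0.22, 95% interval −0.42 to 0.69, limma adjusted p = 0.9999).

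ATRX (chrX:76760356-77041719, minus strand, up to 35 exons and 11184 nt) was at 9.59 and 10.8 FPKM without formaldehyde and 6.96 and 8.87 FPKM with it, in replicates 1 and 2. As for ASF1B, both formaldehyde libraries were below both untreated ones. Nearly all of it was the transcript NM_000489; NM_138270, of 34 exons, reached 4.94% of the gene in formaldehyde replicate 2 and was at about 0 in the others. ATRX was lower by 27.4% and 17.5% within the numbers, and its mean was 0.778 times the untreated mean. In limma the log2 difference came to −0.33 (SE 0.22, 95% interval −0.89 to 0.23, limma adjusted p = 0.9999). ASF1B and ATRX were the 2 of 10 members with groups that did not overlap on the lower side, against 10.7% of all genes tested, and no member was separated on the higher side, against 16.2%. An exact two-sided permutation test of 2 against 2 libraries cannot give a p below 0.333.

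DAXX (chr6:33286335-33290793, minus strand, 3 named transcripts) was at 25.7 and 31.1 FPKM without formaldehyde and 21.6 and 32.01 FPKM with it, in replicates 1 and 2. The formaldehyde libraries were the lowest and the highest. The log2 difference was −0.10 (SE 0.27, 95% interval −0.79 to 0.59, limma adjusted p = 0.9999), with −16.1% and 2.93% within the numbers. A further transcript at the same place, NR_024517 (7 exons, 2356 nt, without the exon 2 of the named ones), is listed without a gene name and was at 12.7 and 12.02 FPKM in untreated and 7.83 and 17.5 FPKM in formaldehyde libraries. It made up 26.6% to 35.3% of the level at the place, so the sum by gene name leaves out about that share, and with it DAXX was at 38.4, 43.1, 29.4 and 49.5 FPKM. DAXX was also listed at 4 alternative chromosome 6 haplotypes, all at 0 in every library, and in untreated replicate 2 the authors' intervals of its transcripts began at 0 (0 to 42.2 FPKM for NM_001141969). DAXX exceeded ATRX 2.68-fold and 2.89-fold in untreated and 3.10-fold and 3.61-fold in formaldehyde libraries, so that ratio was higher in both formaldehyde libraries, and it exceeded HIRA 1.63-fold and 2.38-fold in untreated and 1.499-fold and 1.83-fold in formaldehyde libraries, with overlap.

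Set side by side, 6 of the 10 members differed in sign with the replicate number. Within number 1 the formaldehyde library was lower for 6 of 7 replication-coupled and 3 of 3 H3.3 genes, against 53.5% of all genes tested. Within number 2 it was lower for 2 of 7 and 1 of 3, against 37.3%. The median log2 difference of the replication-coupled genes was −0.33 within number 1 and 0.22 within number 2, and that of the H3.3 genes −0.24 and 0.04. For all genes tested the same medians were −0.027 and 0.095. Formaldehyde replicate 1 was not the lowest of the 4 libraries for every member. RBBP4, HAT1 and HIRA were lower in untreated replicate 2, and ASF1A was at its highest in formaldehyde replicate 1. Formaldehyde replicate 1 was also the shallowest library, and the part of depth in these values was not tested. CHAF1A, ASF1B and ATRX were lower within both numbers (3 of 10, against 22.6% of all genes tested). ASF1A was higher within both (1 of 10, against 31.2%). The other 6 differed in sign, as did the genes tested that fell in neither of these shares, so a mixed sign is not particular to the members.

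**Figure D3:**
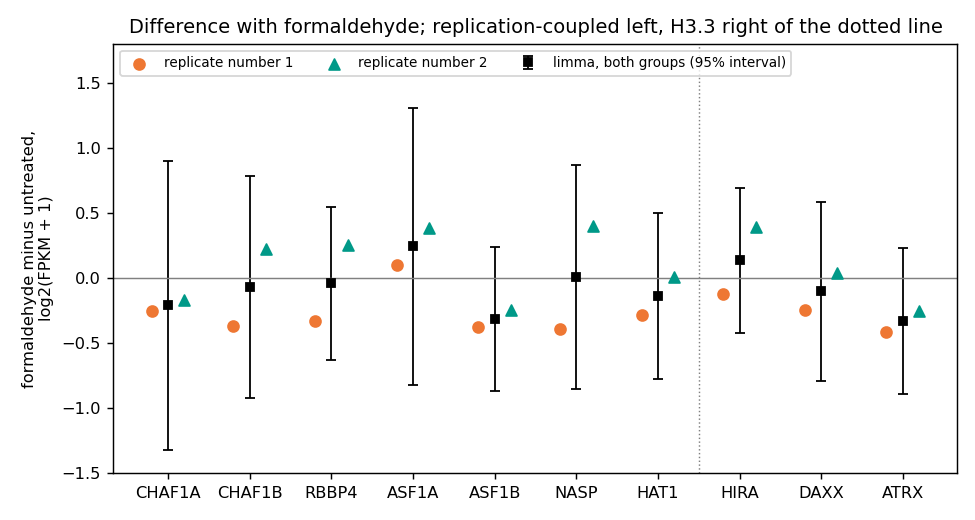
Formaldehyde minus untreated on the log2(FPKM + 1) scale for each gene, within replicate number 1 (orange circles), within number 2 (green triangles) and from limma over both groups (black squares with 95% intervals). Every interval includes 0, and the sign differs between numbers for CHAF1B, RBBP4, NASP, HAT1, HIRA and DAXX.

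No difference between the 2 routes exceeded the spread of the libraries. Their summed levels were 377 and 406 FPKM in untreated and 298 and 427 FPKM in formaldehyde libraries for the 7 replication-coupled genes, and 51.1 and 54.9 against 42.9 and 58.4 FPKM for the 3 H3.3 genes. In both routes formaldehyde replicate 1 had the lowest sum and formaldehyde replicate 2 the highest. The median log2 difference between groups was −0.07 for the replication-coupled and −0.10 for the H3.3 genes, beside 0.03 for all genes tested. The mean difference of the former exceeded that of the latter by 0.02. Against the untreated mean this contrast was 0.07 and −0.07 in the untreated and 0.05 and −0.0057 in the formaldehyde libraries, so it lay within the spread of the untreated pair.

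Partners of the chaperones gave the same picture: no gene of the lists below passed the limma test or had an unadjusted p under 0.05. Of all genes tested 0.153% passed, and 343 of 12407 had such an unadjusted p. Groups without overlap occurred on the higher side for 16.2% and on the lower side for 10.7% of all genes tested. The median log2 difference of all genes tested was 0.03. Named are the members with the largest moderated statistic in each list, with H3F3A in addition. Of 14 partners of the replication-coupled route, 7 were higher and 7 lower with formaldehyde, with a median log2 difference of −0.0041. IPO4, an importin that carries H3 and H4 into the nucleus, was at 12.4 and 9.45 FPKM in untreated and 15.3 and 15.6 FPKM in formaldehyde libraries (log2 difference 0.48), with no overlap. CDAN1 (codanin-1), which holds ASF1 in the cytoplasm, was at 6.55 and 7.31 against 6.04 and 5.71 FPKM (−0.20), with no overlap in the other direction. MCM2, the helicase subunit that binds H3-H4 at the fork, was at 98.1 and 93.3 against 70.1 and 100 FPKM (−0.19), and CBX5, the heterochromatin protein HP1 alpha that binds CAF-1, at 20.8 and 12.1 against 12.8 and 14.5 FPKM (−0.21); both overlapped.

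Of 7 partners of the H3.3 route, 2 were higher and 5 lower, with a median of −0.10. PML, the scaffold of the nuclear bodies that hold DAXX, was at 23.6 and 25.2 FPKM in untreated and 29.7 and 33.1 FPKM in formaldehyde libraries (0.35), with no overlap. H3F3B, a gene for H3.3 itself, was at 199 and 181 against 161 and 171 FPKM (−0.19), and UBN2, a HIRA complex subunit, at 1.73 and 1.40 against 1.28 and 1.20 FPKM (−0.19). In both of these the formaldehyde libraries were the lower ones, but reads of H3F3B can be shared with other H3.3 gene copies, and UBN2 was close to the lowest level tested. H3F3A, the other listed H3.3 gene, differed the other way, at 96.7 and 113 against 128 and 105 FPKM (0.15), with overlap. DEK, another H3.3 chaperone, was at 216 and 154 against 136 and 171 FPKM (−0.25), with overlap.

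Among 9 chaperones of other histones or other steps, 7 were higher and 2 lower (median 0.06), none with separated groups. NPM1 (nucleophosmin) was at 571 and 362 against 556 and 544 FPKM (0.27) and NCL (nucleolin) at 300 and 234 against 299 and 340 FPKM (0.26). ANP32E, which removes H2A.Z, was at 65.9 and 47.6 against 35.7 and 57.7 FPKM (−0.30), and HJURP, the chaperone of the centromeric CENP-A, at 33.9 and 24.8 against 27.3 and 22.0 FPKM (−0.23).

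Beside the replication-coupled chaperones, 15 genes of DNA replication that are high in S phase were read. Of these, 3 were higher and 12 lower with formaldehyde. Their median was −0.13 over both groups, −0.37 within number 1 and 0.13 within number 2. For all genes tested these medians were 0.03, −0.027 and 0.095. The S phase values within the numbers resemble those of the replication-coupled chaperones (−0.33 and 0.22), and the part of S phase in the latter was not tested. RRM2, the small subunit of ribonucleotide reductase, was at 77.7 and 68.2 FPKM in untreated and 57.0 and 62.0 FPKM in formaldehyde libraries (−0.29). The helicase subunit MCM4 was at 81.0 and 70.6 against 62.2 and 70.4 FPKM (−0.19), nearly equal in the number 2 libraries. They were the 2 of 15 with no overlap on the lower side, against 10.7% of all genes tested. CCNE2, a cyclin of S phase entry, differed by −0.42 and MCM6 by −0.32, with overlap. For RNA quality, 3 of 5 nuclear-retained RNAs were high enough to test. NEAT1 was at 218 and 596 FPKM in untreated and 485 and 335 FPKM in formaldehyde libraries, MALAT1 at 27.2 and 92.5 against 38.7 and 38.5 FPKM, and TUG1 at 28.0 and 25.8 against 22.5 and 24.3 FPKM. Only TUG1 had groups without overlap, on the lower side. Untreated replicate 2 was the highest library for NEAT1 and MALAT1, and the part of this in the chaperone values was not tested.

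**Figure D4:**
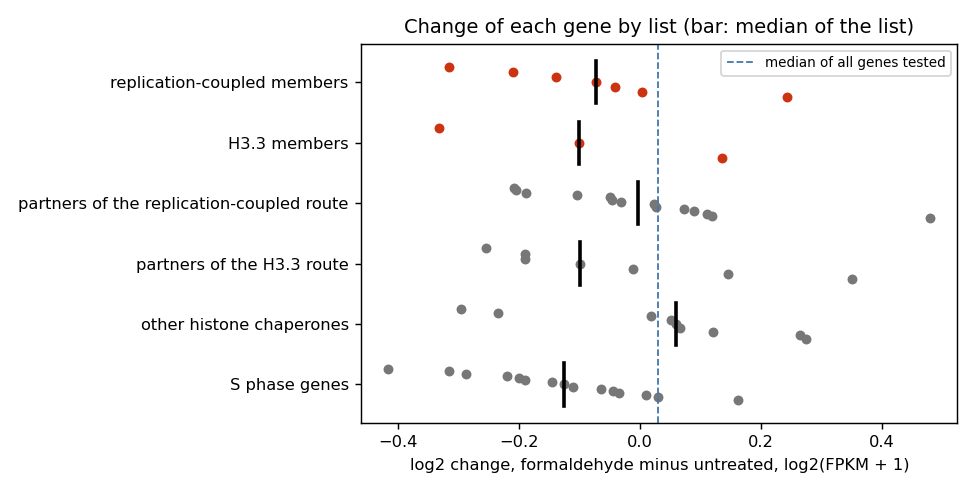
Formaldehyde minus untreated on the log2(FPKM + 1) scale (horizontal axis) for each tested gene of the 10 chaperones (red) and of the 4 other lists (grey), with a bar at the median of each list and a dashed line at the median of all genes tested, 0.03. The medians lie between −0.13 for the S phase genes and 0.06 for the other histone chaperones.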

How the data were processed

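Total RNA of BEAS-2B cells, 2 untreated and 2 exposed libraries, was sequenced on an Illumina HiSeq, per the labels. For the authors' processing, the submitters' processing notes list STAR 2.5.2, Cufflinks 2.0.2 and FastQC 0.10.0, and the builds hg19 and GRCh37. The strand setting and the handling of multi-mapped reads were not given in the sources used. Each deposited file is an annotation of 40255 transcripts in 1 library, and the authors wrote FPKM, interval bounds and coverage into its attributes, per the file headers. FPKM was summed over the transcript lines of each of 23004 gene names, and 894 transcripts without a name (1.07% to 1.31% of FPKM) were left out. Fragment numbers and depth were recovered from the bounds and used as description only.

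Genes with a mean of at least 1 FPKM (12407) were tested on log2(FPKM + 1), which understates the change of low genes, with limma 3.58.1 in R 4.3.3 (lmFit, eBayes with a mean trend, no covariate). Tests were two-sided and adjusted by Benjamini-Hochberg across all genes, with a threshold of 0.05. Scripts were tested on simulated data. Python 3.11.15 and matplotlib 3.10.9 served for sums and plots. All 10 members are named; of other lists, members past the threshold or, with none, up to 4 with the largest absolute moderated statistic. H3F3A is named in addition, beside H3F3B. Members, lists and tests were chosen with earlier results of these data known. Alternatives covered the pseudocount, the filter, the scaling, the transcript summary, the replicate block and each library left out. Exon sequences came from GENCODE 29 (GRCh38) transcripts matched by RefSeq identifier.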

Additional observations from a re-analysis of the deposited data

How the results depend on the processing

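No member passed limma's threshold in any of the 14 alternatives tried for each gene (15 for DAXX); the lowest adjusted p was 0.696, for ATRX. The number of genes passing, 19 as reported, was 17 to 24 under another pseudocount, a minimum of 5 FPKM, other scalings, no mean trend or the highest transcript of each gene. It was 0 with no filter (limma over all 23004 genes, 956 at an unadjusted p under 0.05), 1 with genes of at least 300 nt, and 31 to 55 with a library left out, where the lone library of a group is assumed to vary like the others. Those calls were 6 higher and 49 lower without untreated replicate 1, 3 and 28 without untreated replicate 2, 34 and 10 without formaldehyde replicate 1, and 44 and 11 without formaldehyde replicate 2. With the replicate number as a block it was 29 (14 higher, 15 lower) and no member; the labels give the numbers no shared origin, and the deviations of same-numbered libraries had r = 0.25 over 12407 genes. ASF1B, HIRA and ATRX kept their direction under all alternatives, ASF1B from −0.45 to −0.18, HIRA from 0.0043 to 0.27 and ATRX from −0.49 to −0.18. The filters, the mean trend and the block left every log2 difference unchanged. So did the highest transcript for ASF1B and HIRA, which have 1 listed transcript each. Leaving out a library could not reverse ASF1B or ATRX, whose groups did not overlap. Under those alternatives the kept direction was fixed in advance and is no further support. NASP reversed to −0.027 with median-ratio scaling, −0.061 with equal FPKM sums and −0.073 with quantile normalization. Leaving out each library in turn, the log2 difference ran from −0.66 to 0.24 for CHAF1A, −0.49 to 0.34 for CHAF1B, −0.23 to 0.15 for RBBP4, −0.23 to 0.71 for ASF1A, −0.42 to 0.43 for NASP, −0.38 to 0.10 for HAT1 and −0.38 to 0.17 for DAXX, and the median of the replication-coupled genes from −0.42 (without formaldehyde replicate 2) to 0.064 (without formaldehyde replicate 1). The median of the H3.3 genes ran from −0.38 to 0.17 in the same order, and the contrast of the routes from −0.044 to 0.09, on leaving out untreated replicates 2 and 1. Using only the highest transcript per gene, the contrast was −0.014, HAT1 −0.50 and NASP 0.18. The direction reversed without untreated replicate 1 for RBBP4 (0.15), NASP (−0.023) and HAT1 (0.10), without untreated replicate 2 for CHAF1A (0.20), CHAF1B (0.045), ASF1A (−0.23) and DAXX (0.031), without formaldehyde replicate 1 for CHAF1A (0.24), CHAF1B (0.34), RBBP4 (0.064), ASF1A (−0.084) and DAXX (0.17), and without formaldehyde replicate 2 for NASP (−0.42); the cause was not tested. Adding NR_024517, chosen after seeing the data, gave DAXX −0.09. Depth limits ASF1A, which had at most 327 fragments in a library.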
